A study of Mus musculus with 9 samples.

Results

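The genes described here are the mouse G protein-coupled receptors that carried a numbered Gpr symbol in the gene table, the older names under which orphan and adhesion receptors were first catalogued. They were chosen by name alone, as every row whose symbol is Gpr followed by a number and at most 1 lower-case letter, which gave 87 of 19348 rows. A filter on low counts kept 68 of the 87 among the 15550 genes tested.

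RNA was sequenced from 3 cell populations sorted from the lungs of C57BL/6J mice that carried 2 reporters, Col1_GFP and Foxf1_tdTomato, a green fluorescent protein for type I collagen and a red one for the transcription factor Foxf1. DBL cells expressed both, TDonly cells Foxf1 without type I collagen, and ColGFP cells type I collagen without Foxf1, with 3 libraries each. All 3 populations shared the strain, the genotype and the tissue; the age of the mice, the reporter constructs and the sort gates were not given in the sources used here. Nothing in the labels says that replicates came from separate animals or sorts, and the p-values therefore measure how far these libraries vary, which may be technical.

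G protein-coupled receptors cross the plasma membrane several times and pass an outside signal to G proteins, which then raise or lower second messengers such as cyclic AMP or calcium. Adhesion receptors of this superfamily have a long extracellular part that binds matrix or neighbouring cells. In many of them this part is cut from the membrane part, and a tethered stretch of the receptor itself acts as the agonist. Many numbered genes are still orphans with no accepted ligand, while others have since been renamed for their ligand, as Gpr30 to Gper1. In the lung, receptors of this kind are best known from the endothelium, the alveolar epithelium and immune cells.

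The libraries held between 17820969 and 26147475 counts. Replicate 1 of each population carried a sequencing core number of a lower series than the other libraries. Expression is given as CPM, read counts scaled to a common library size with edgeR's TMM factors, and the values of a population are listed in the order of its replicates: 1, 3 and 4 for DBL, and 1, 2 and 3 for TDonly and for ColGFP. Differences are log2 fold changes with their SE, the first-named population over the second, and a positive value means higher in the first. The reporter genes checked the sorts only in part: Foxf1a was at 113, 87.3 and 103 CPM in DBL, 279, 231 and 229 CPM in TDonly and 61.9, 62.5 and 54.5 CPM in ColGFP, and Col1a1 at 9539, 12241 and 13224 CPM in DBL, 373, 1493 and 1566 CPM in TDonly and 4939, 9593 and 9181 CPM in ColGFP, so neither was absent from the population sorted without it. Markers of several lung cell types were present in each population. The summed level of 18 endothelial markers was 5390 to 6956 CPM in DBL, 15769 to 17707 CPM in TDonly and 1031 to 1491 CPM in ColGFP. That of 12 fibroblast and matrix markers was 37503 to 45148 CPM in DBL, 1726 to 6024 CPM in TDonly and 23061 to 38953 CPM in ColGFP. All 18 endothelial markers were higher in DBL than in ColGFP, lower in DBL than in TDonly and higher in TDonly than in ColGFP. All 12 fibroblast markers were higher in DBL than in TDonly and lower in TDonly than in ColGFP, while 0 were higher and 2 lower in DBL than in ColGFP. No marker of these lists or of the other cell type lists given below was at 0 in all libraries of a population. In such bulk samples, fewer cells of a type and less RNA per cell cannot be told apart.

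Of the 87 names, 86 were matched to a current symbol of the GENCODE M21 annotation, 65 unchanged and 21 through a synonym, and Gpr52 was not matched. The name is not a guarantee of the family: 9 of the 87 encode intracellular membrane proteins outside the classic receptor families, such as Gpr107 and Gpr108 of the Golgi and Gpr89, a Golgi pH regulator. The others were 16 adhesion receptors, 4 proton sensors, 5 chemoattractant and chemokine-related receptors, 13 receptors for lipids, steroids or metabolites, 36 other class A orphans, 3 class C orphans and the constitutively active cAMP-raising receptor Gpr3. The other class A orphans are the remainder, the genes placed in no other class, so that each belongs to class A is not certain. Exons of 29 of the 87 overlapped an exon of another gene, and since no source used here gives the strand setting of the counting, the reads of such a pair cannot be separated.

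The promoters of 6 genes are shown because their levels set the main patterns below: Gpr116, Gpr56, Gpr97 and Gpr146, all highest in TDonly, with Gpr30, the neighbour of Gpr146 that was highest in ColGFP, and Gpr39, highest in DBL. Each is the 200 bases before the start listed by RefSeq on GRCm38.p6, plus strand, 5′ to 3′. Capitals mark GGAAG, 1 form of the core of ETS factor sites, or its reverse complement CTTCC. Other forms, such as GGAA before another base, were not marked or counted. The windows are chr17:43360231-43360430 for Gpr116, chr8:94976909-94977108 for Gpr56, chr8:95017492-95017691 for Gpr97, chr5:139377497-139377696 for Gpr146, chr5:139422979-139423178 for Gpr30 and chr1:125676796-125676995 for Gpr39. Of the 87 names, 63 were matched in that table; Gpr182 and Gpr133 were not.
Gpr116: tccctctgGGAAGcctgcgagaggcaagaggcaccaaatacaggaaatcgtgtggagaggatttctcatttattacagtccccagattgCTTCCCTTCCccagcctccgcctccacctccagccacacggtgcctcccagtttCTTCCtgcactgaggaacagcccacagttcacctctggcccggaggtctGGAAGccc
Gpr56: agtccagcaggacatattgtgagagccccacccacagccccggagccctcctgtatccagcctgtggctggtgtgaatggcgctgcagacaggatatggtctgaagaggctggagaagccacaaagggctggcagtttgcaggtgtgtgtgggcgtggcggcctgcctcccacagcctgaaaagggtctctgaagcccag
Gpr97: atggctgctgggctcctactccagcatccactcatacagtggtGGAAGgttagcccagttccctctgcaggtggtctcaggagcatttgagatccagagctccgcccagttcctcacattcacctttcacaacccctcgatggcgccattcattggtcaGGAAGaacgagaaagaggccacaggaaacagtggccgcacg
Gpr146: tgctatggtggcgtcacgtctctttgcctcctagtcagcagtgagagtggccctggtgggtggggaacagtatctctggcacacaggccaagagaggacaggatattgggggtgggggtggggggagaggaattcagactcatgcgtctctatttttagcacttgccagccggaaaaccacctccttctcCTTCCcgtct
Gpr30: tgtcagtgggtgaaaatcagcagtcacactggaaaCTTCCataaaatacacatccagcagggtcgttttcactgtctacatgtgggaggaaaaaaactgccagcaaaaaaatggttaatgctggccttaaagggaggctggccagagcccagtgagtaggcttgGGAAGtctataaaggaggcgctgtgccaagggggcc
Gpr39: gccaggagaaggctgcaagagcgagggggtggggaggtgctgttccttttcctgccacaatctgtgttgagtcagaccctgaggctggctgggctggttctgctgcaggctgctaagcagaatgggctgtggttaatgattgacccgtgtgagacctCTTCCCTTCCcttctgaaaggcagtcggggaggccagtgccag
The motif occurred 5 times in the Gpr116 window, 2 times each in those of Gpr97, Gpr30 and Gpr39, 1 time in that of Gpr146 and 0 times in that of Gpr56, whose listed start lies 2358 bases from the GENCODE start of the gene. It is common: 56.4% of 27025 mouse promoters of the same length hold it on either strand. TGTTTA or its reverse complement TAAACA, 1 form of the core of forkhead sites such as those of Foxf1, was in 0 of the 6 windows. Of the 27025 promoters, 9.37% hold it. These are matches of letters in these windows and nothing was tested on them.

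The numbered Gpr genes together gave the most reads in TDonly cells, and 1 gene, Gpr116, accounted for most of that. Their summed level was 3251, 2974 and 3069 CPM in DBL, 6111, 5997 and 6109 CPM in TDonly and 1764, 1617 and 1580 CPM in ColGFP. The 3 populations did not overlap. Gpr116 alone made up 55.8% to 57.9% of that sum in DBL, 78.7% to 80.7% in TDonly and 21.0% to 31.2% in ColGFP. Without Gpr116 the sum was 1369, 1264 and 1356 CPM in DBL, 1302, 1233 and 1177 CPM in TDonly and 1214, 1226 and 1248 CPM in ColGFP. TDonly then overlapped both other populations, while each DBL library was still above each ColGFP library. Between 76 and 84 of the 87 genes had at least 1 count in a library, and 24 averaged at least 10 CPM in at least 1 population.

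**Figure D1:**
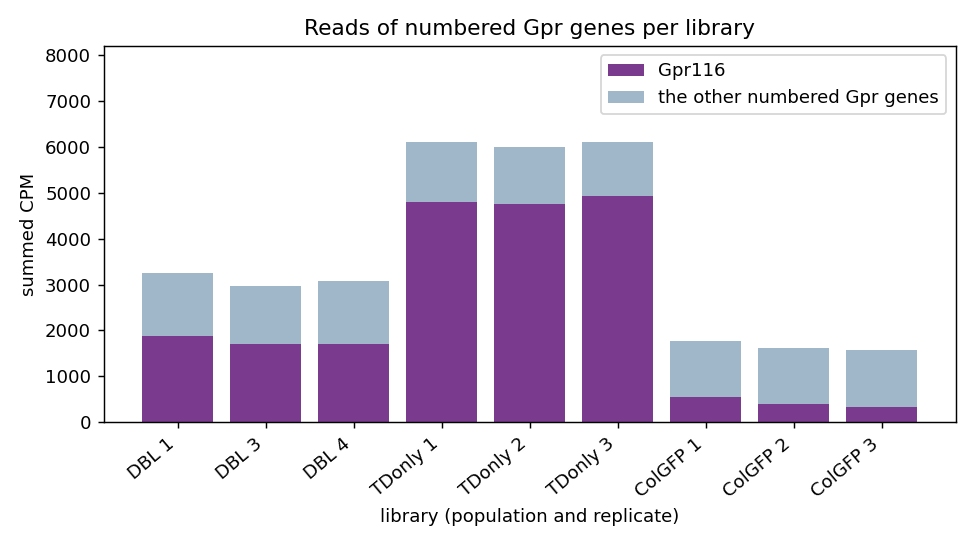
Summed CPM of the 87 numbered Gpr genes (vertical axis) in each library (horizontal axis), with the part from Gpr116 in purple and the rest in blue grey. The purple part is tallest in the 3 TDonly libraries, at 4764 to 4931 CPM, while the blue grey part lies between 1177 and 1369 CPM in every library.

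In DBL against ColGFP, 6 of the 68 tested genes were higher and 4 lower at an adjusted p under 0.05 (edgeR's quasi-likelihood test, Benjamini-Hochberg over 15550 genes). That is 14.7% of them, against 14.5% of all genes tested (8.04% higher and 6.47% lower). In DBL against TDonly, 17 were higher and 11 lower, 41.2% of them against 29.9% of all genes (17.3% higher and 12.6% lower). In TDonly against ColGFP, 12 were higher and 21 lower, 48.5% against 45.5% of all genes (21.6% higher and 24% lower). The shares in the first and the last comparison are thus near the background, and no count here was tested as a set. The median log2 fold change of the 68 was -0.20 in DBL against ColGFP, 0.00436 in DBL against TDonly and -0.24 in TDonly against ColGFP, beside -0.00317, -0.04 and 0.02 over all genes tested. Individual values ranged from -3.39 to 2.60 in DBL against ColGFP and from -4.34 to 4.17 in TDonly against ColGFP. The 3 comparisons share libraries and are not independent of each other. In all, 36 genes passed in at least 1 comparison, giving 71 calls. All 71 had the same sign between the replicate 1 libraries alone, and 69 also passed among the other 6 libraries alone. Both sets are parts of the 9 libraries that gave the calls, so this match was favoured by the choice of genes and is no independent repeat. Among the 6 libraries of the higher core series, DBL against ColGFP gave 10 of 69 tested genes higher and 8 lower. Over all genes that fit gave 2543 of 15616 higher and 1969 lower, in place of 1250 and 1006 of 15550. Its adjusted p-values come from fewer libraries and are not directly comparable with those of the main fit. Without DBL replicate 3 or DBL replicate 4, 7 genes in place of 11 were lower in DBL than in TDonly. Over all genes the count lower fell too, from 1965 to 1388 and 1155. These shifts in the counts thus went with shifts over all genes. Where libraries are named below as left out, they were left out 1 at a time.

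**Figure D2:**
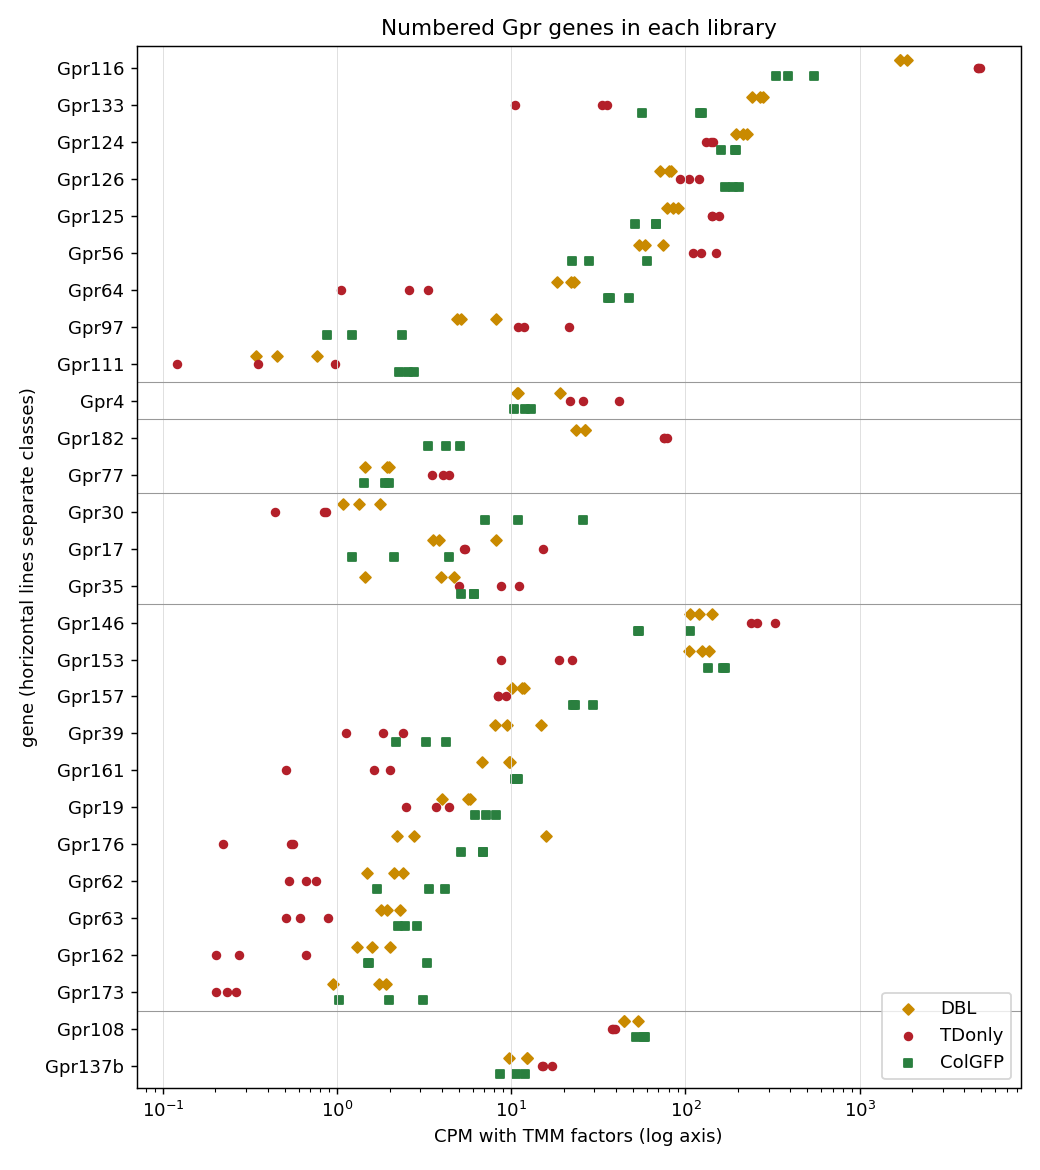
CPM (log axis) of 28 numbered Gpr genes in each library, 1 row a gene, grouped by class, with a point for every library coloured by population. Gpr116 stands at the right end, with TDonly libraries at 4764 to 4931 CPM, and the ColGFP and DBL points lie close together, far above TDonly, for Gpr153 and Gpr161.

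Adhesion receptors gave 26 of the 71 calls. Of 13 tested, 3 were higher and 2 lower in DBL against ColGFP, 4 higher and 6 lower in DBL against TDonly, and 5 higher and 6 lower in TDonly against ColGFP. That is 38.5%, 76.9% and 84.6% of the 13, against 14.5%, 29.9% and 45.5% of all genes tested, and was not tested as a set. Gpr116, which restrains surfactant in alveolar type II cells and is also made by endothelium, lies on chromosome 17 from 43360451 to 43459557 on the plus strand (GRCm38). It was at 1882, 1709.8 and 1713 CPM in DBL, 4809, 4764 and 4931 CPM in TDonly and 551, 390.3 and 332 CPM in ColGFP. Each TDonly library was above each DBL library, and each DBL library above each ColGFP library. The log2 fold change was 2.06 ± 0.19 (adjusted p = 0.000106) in DBL against ColGFP, -1.45 ± 0.18 (adjusted p = 0.000371) in DBL against TDonly and 3.51 ± 0.20 (adjusted p = 1.1e-06) in TDonly against ColGFP. The endothelial marker sums given above were in the same order across the populations. The sums of 12 epithelial markers were 7346 to 8095 CPM in DBL, 11486 to 14980 CPM in TDonly and 4041 to 12076 CPM in ColGFP, overlapping between TDonly and ColGFP; 0 of the 12 passed in DBL against ColGFP, 1 was lower in DBL than in TDonly and 7 were higher in TDonly than in ColGFP. The part of either cell type in the Gpr116 difference was not tested.

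Gpr125, a relative of Gpr124, and Gpr97, known from granulocytes, had the same order as Gpr116. Gpr125 was at 78.7, 84.4 and 90.9 CPM in DBL, 156, 142 and 142 CPM in TDonly and 51.2, 67.9 and 67.96 CPM in ColGFP. No 2 populations overlapped, though DBL and ColGFP were close. DBL was higher than ColGFP by a log2 fold change of 0.44 ± 0.12 (adjusted p = 0.0389) and lower than TDonly with -0.79 ± 0.12 (adjusted p = 0.00103), and TDonly was higher than ColGFP by 1.23 ± 0.12 (adjusted p = 3.38e-05). Gpr97 was at 8.12, 5.14 and 4.89 CPM in DBL, 21.4, 10.9 and 11.8 CPM in TDonly and 2.37, 1.21 and 0.878 CPM in ColGFP. Its populations were separate too, and replicate 1 was the highest library in each of them. The log2 fold change was 2.01 ± 0.41 (adjusted p = 0.0102) in DBL against ColGFP, -1.28 ± 0.37 (adjusted p = 0.0271) in DBL against TDonly and 3.29 ± 0.42 (adjusted p = 0.000159) in TDonly against ColGFP. Leukocyte markers, 11 in number, summed to 1287 to 1489 CPM in DBL, 1981 to 2823 CPM in TDonly and 924 to 2389 CPM in ColGFP. Of them, 1 passed, lower in DBL than in TDonly, and their part in the Gpr97 values was not tested. The sums do not follow each marker: Ptprc was at 5.22, 30.4 and 33.2 CPM in DBL, and Cd68 at 9.84, 11.8 and 14.6 CPM. Gpr125 lost its call in DBL against ColGFP without DBL replicates 1, 3 or 4, or TDonly replicates 2 or 3, or ColGFP replicates 2 or 3 (adjusted p from 0.0541 to 0.11). Gpr97 lost its call in DBL against TDonly without DBL replicates 3 or 4, or TDonly replicate 1 (adjusted p from 0.0857 to 0.112). Without ColGFP replicate 1 the Gpr97 value in DBL against ColGFP was 2.58.

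Gpr56, which binds type III collagen and is needed for cortical development, was also highest in TDonly. It was at 74.01, 54.1 and 58.8 CPM in DBL, 150.3, 122 and 110.4 CPM in TDonly and 60.3, 28.1 and 22.5 CPM in ColGFP. TDonly lay above both other populations, which overlapped, with ColGFP replicate 1 above 2 of the DBL libraries. TDonly was higher than ColGFP by a log2 fold change of 1.79 ± 0.33 (adjusted p = 0.00162). DBL was lower than TDonly with -1.03 ± 0.32 (adjusted p = 0.0359), and DBL against ColGFP, at 0.75 ± 0.32 (adjusted p = 0.168), did not pass with all libraries. That difference passed without ColGFP replicate 1, at 1.33 (adjusted p = 0.00239), in the higher core series alone, at 1.18 (adjusted p = 1.07e-07), and with the core series as covariate, at 0.84 (adjusted p = 0.0112). The higher core series holds 6 libraries, and its fit called more of all genes, as given above. Gpr56 lost its call in DBL against TDonly without DBL replicates 3 or 4, or TDonly replicates 1, 2 or 3 (adjusted p from 0.0544 to 0.12).

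Gpr133, a receptor that couples to Gs and raises cyclic AMP, stood out for its level in DBL. It was at 268, 242 and 278 CPM in DBL, 10.4, 33.05 and 35.5 CPM in TDonly and 56.3, 124 and 121 CPM in ColGFP. All DBL libraries were above every other library, and replicate 1 was the lowest library in TDonly and in ColGFP. Relative to TDonly, DBL was higher by a log2 fold change of 3.32 ± 0.45 (adjusted p = 0.000556), and TDonly was lower than ColGFP with -1.93 ± 0.43 (adjusted p = 0.00497). DBL against ColGFP gave 1.39 ± 0.42 (adjusted p = 0.0568) and did not pass, although the groups did not overlap. It passed under several alternatives: with DESeq2 (adjusted p = 0.00645), with limma-voom, in the fit of the 2 populations alone, with the core series as covariate, without TDonly replicate 1, and among the libraries of the higher core series alone, where it was 1.10. Mesothelial markers, 8 in number, had their highest sums in DBL as well, at 623 to 719 CPM in DBL, against 95.2 to 324 CPM in TDonly and 137 to 204 CPM in ColGFP. Of 7 tested, 6 were higher in DBL than in ColGFP and 6 than in TDonly, and their part in the Gpr133 level was not tested.

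Gpr124, which with the membrane protein Reck recognises Wnt7a and Wnt7b in brain vessels, had small differences. It was at 226, 195 and 214 CPM in DBL, 139.9, 143 and 131 CPM in TDonly and 161, 191 and 195 CPM in ColGFP. TDonly was below both other populations, which overlapped. The DBL level exceeded that of TDonly by a log2 fold change of 0.61 ± 0.10 (adjusted p = 0.00177), and TDonly was lower than ColGFP with -0.40 ± 0.10 (adjusted p = 0.0109). With library totals in place of TMM factors, TDonly against ColGFP gave -0.25 (adjusted p = 0.0577). Gpr126, needed for Schwann cell myelination and able to bind type IV collagen, was at 80.7, 82.6 and 71.8 CPM in DBL, 92.5, 120.3 and 105 CPM in TDonly and 203, 168 and 188 CPM in ColGFP. It was lowest in DBL and highest in ColGFP, with no overlap between any 2 populations. The log2 fold change was -1.25 ± 0.12 (adjusted p = 0.000151) in DBL against ColGFP, -0.43 ± 0.12 (adjusted p = 0.0217) in DBL against TDonly and -0.82 ± 0.12 (adjusted p = 0.000397) in TDonly against ColGFP. Gpr126 lost its call in DBL against TDonly without DBL replicate 4, or TDonly replicates 2 or 3 (adjusted p from 0.0543 to 0.127).

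Gpr64, best known from the epididymis, was at 18.3, 22.8 and 21.9 CPM in DBL, 1.05, 3.32 and 2.59 CPM in TDonly and 47.3, 36.1 and 37.1 CPM in ColGFP. ColGFP was highest and TDonly lowest, with DBL between them and no overlap. DBL was higher than TDonly by a log2 fold change of 3.18 ± 0.32 (adjusted p = 0.000144) and TDonly lower than ColGFP with -4.11 ± 0.33 (adjusted p = 9.6e-06), while DBL against ColGFP gave -0.94 ± 0.28 (adjusted p = 0.0569). The call of this last difference depended on the processing: it passed with DESeq2 (adjusted p = 0.0173), with limma-voom (adjusted p = 0.00791), in the fit of the 2 populations alone, with the core series as covariate, in the higher core series alone, and without TDonly replicate 1 or TDonly replicate 2. Gpr111, of the same subfamily as Gpr116, was scarce, at 0.343, 0.451 and 0.767 CPM in DBL, 0.351, 0.12 and 0.967 CPM in TDonly and 2.77, 2.54 and 2.26 CPM in ColGFP. ColGFP was above both other populations, which overlapped. The difference was -2.27 ± 0.58 (adjusted p = 0.0288) in DBL against ColGFP and -2.40 ± 0.59 (adjusted p = 0.00817) in TDonly against ColGFP. The call in DBL against ColGFP was lost without any 1 of the DBL or ColGFP libraries (adjusted p from 0.0508 to 0.0974), and without TDonly replicate 3 the value in TDonly against ColGFP was -3.39. Gpr115, its neighbour, was higher in DBL than in TDonly by 1.71 ± 0.46 (adjusted p = 0.0199) and lower in TDonly than in ColGFP with -2.35 ± 0.46 (adjusted p = 0.00229). Gpr115 lost its call in DBL against TDonly without DBL replicate 1, or TDonly replicates 1 or 2 (adjusted p from 0.0618 to 0.0677).

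**Figure D3:**
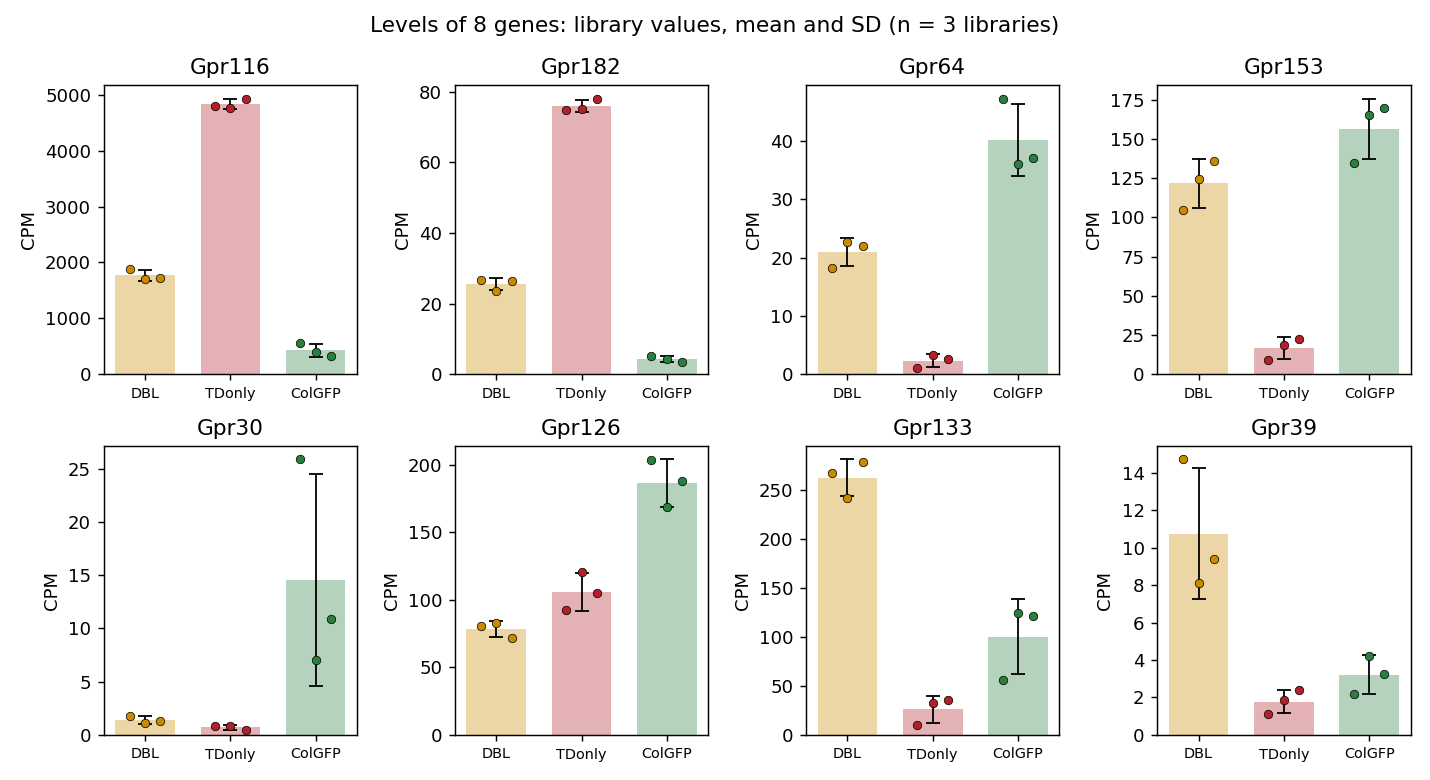
CPM of 8 genes in DBL, TDonly and ColGFP (a linear axis for each gene, from 0); points are libraries, bars the mean and whiskers the SD of 3 libraries. Gpr116 and Gpr182 are highest in TDonly, Gpr64, Gpr30 and Gpr126 in ColGFP and Gpr133 and Gpr39 in DBL, while Gpr153 is high in DBL and ColGFP, whose points overlap.

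The proton sensors share the ability to signal when the medium turns acid, and Gpr4, which is known from endothelium, was the one that passed. It was at 19.1, 10.995 and 10.8 CPM in DBL, 41.3, 25.8 and 21.8 CPM in TDonly and 10.4, 12.9 and 11.97 CPM in ColGFP. TDonly was above both other populations, and replicate 1 was the highest library in DBL and in TDonly. DBL was lower than TDonly with a log2 fold change of -1.12 ± 0.28 (adjusted p = 0.014), and TDonly was higher than ColGFP by 1.34 ± 0.28 (adjusted p = 0.00378). Gpr4 lost its call in DBL against TDonly without DBL replicates 3 or 4 (adjusted p from 0.0598 to 0.0744). Gpr132 and Gpr65 did not pass in any comparison with all libraries. In the higher core series alone, Gpr132 passed in DBL against TDonly, at -0.84 (adjusted p = 0.00572). Gpr132 was at 1.11, 4.91 and 5.57 CPM in DBL, and averaged 7.67 CPM in TDonly and 6.72 CPM in ColGFP.

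Among the chemoattractant and chemokine-related receptors, 3 of 5 were tested and Gpr182, an endothelial atypical chemokine receptor, had the smallest adjusted p of the numbered Gpr genes in all 3 comparisons. It was at 26.6, 23.7 and 26.3 CPM in DBL, 74.9, 75.3 and 78.1 CPM in TDonly and 5.098, 4.23 and 3.33 CPM in ColGFP. The 3 populations were far apart and the libraries within each close together. The log2 fold change was 2.60 ± 0.15 (adjusted p = 1.12e-05) in DBL against ColGFP, -1.57 ± 0.13 (adjusted p = 7.08e-05) in DBL against TDonly and 4.17 ± 0.15 (adjusted p = 1.87e-07) in TDonly against ColGFP. Markers of lymphatic endothelium, 5 in number, summed to 293 to 383 CPM in DBL, 629 to 639 CPM in TDonly and 117 to 155 CPM in ColGFP, with 2 higher and 0 lower in DBL against ColGFP, 1 higher and 4 lower in DBL against TDonly and 4 higher and 1 lower in TDonly against ColGFP. Like the endothelial sums above, these sums were in the same order as Gpr182, and the part of such cells in its difference was not tested. By their means, Lyve1 and Flt4 had that order, while Prox1, Pdpn and Reln did not. Prox1 averaged 3.21 CPM in DBL, 6.51 CPM in TDonly and 3.41 CPM in ColGFP. Pdpn averaged 92.0 CPM in DBL, 31.6 CPM in TDonly and 66.3 CPM in ColGFP. Gpr77, now C5ar2 and the second receptor for complement C5a, was at 1.45, 1.98 and 1.94 CPM in DBL, 4.05, 4.37 and 3.52 CPM in TDonly and 1.88, 1.996 and 1.43 CPM in ColGFP. TDonly was above the other populations, which overlapped. DBL was lower than TDonly with -1.15 ± 0.23 (adjusted p = 0.0046) and TDonly higher than ColGFP by 1.17 ± 0.24 (adjusted p = 0.00278). Gpr1, a receptor for chemerin, did not pass.

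Receptors for lipids, steroids and metabolites were mostly scarce: 12 of 13 were tested and 3 passed in any comparison. That is 8.33% of the 12 in DBL against ColGFP, 8.33% in DBL against TDonly and 16.7% in TDonly against ColGFP. Of all genes tested, 14.5%, 29.9% and 45.5% passed in these comparisons. Gpr30, the membrane oestrogen receptor, was at 1.75, 1.08 and 1.33 CPM in DBL, 0.857, 0.841 and 0.44 CPM in TDonly and 25.9, 7.02 and 10.9 CPM in ColGFP. Every ColGFP library was above every other library, and ColGFP replicate 1 was more than the sum of the other ColGFP libraries. The log2 fold change was -3.39 ± 0.49 (adjusted p = 0.00153) in DBL against ColGFP and -4.34 ± 0.52 (adjusted p = 0.000111) in TDonly against ColGFP, while DBL against TDonly gave 0.95 ± 0.54 (adjusted p = 0.216). Without ColGFP replicate 1 the calls held, at -2.66 in DBL against ColGFP and -3.66 in TDonly against ColGFP. Smooth muscle and pericyte markers, 12 in number, summed to 1016, 791 and 854 CPM in DBL, 233, 296 and 305 CPM in TDonly and 2329, 1059 and 1145 CPM in ColGFP, with ColGFP replicate 1 again the highest. Of them, 0 were higher and 3 lower in DBL against ColGFP, and 2 higher and 9 lower in TDonly against ColGFP, and their part in the Gpr30 level was not tested. ColGFP replicate 1 was not highest in these markers alone. It also had the highest ColGFP sum of epithelial (12076, 5987 and 4041 CPM), leukocyte (2389, 1213 and 924 CPM), endothelial and lymphatic markers, but not of fibroblast or mesothelial markers. Not every leukocyte marker followed its sum: in ColGFP, Ptprc was at 39.3, 30.7 and 39.5 CPM and Cd68 at 13.6, 14.8 and 18.5 CPM.

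Gpr35, a receptor for kynurenic acid, was at 1.45, 3.97 and 4.68 CPM in DBL, 5.03, 8.77 and 11.1 CPM in TDonly and 6.13, 5.14 and 6.099 CPM in ColGFP. DBL was below both other populations, which overlapped. It was lower in DBL than in TDonly with a log2 fold change of -1.30 ± 0.41 (adjusted p = 0.0373), and the other comparisons did not pass, except that TDonly against ColGFP passed in the higher core series alone, at 0.78 (adjusted p = 0.00301). Gpr35 lost its call in DBL against TDonly without DBL replicates 1 or 3, or TDonly replicates 2 or 3, or ColGFP replicates 1, 2 or 3 (adjusted p from 0.0518 to 0.127). Without DBL replicate 1, its lowest library, the value was -0.94. The leukocyte marker Ptprc was also lowest in that library, at 5.22, 30.4 and 33.2 CPM in DBL. The part of leukocytes in the Gpr35 values was not tested. Gpr17, known from maturing oligodendrocytes, was at 8.12, 3.83 and 3.55 CPM in DBL, 15.2, 5.37 and 5.45 CPM in TDonly and 4.38, 1.21 and 2.13 CPM in ColGFP. Replicate 1 was the highest library in each population, and TDonly replicate 1 was nearly 3 times the other TDonly libraries. TDonly was higher than ColGFP by 1.73 ± 0.57 (adjusted p = 0.0324). Gpr17 lost its call in TDonly against ColGFP without TDonly replicate 1, or ColGFP replicates 2 or 3 (adjusted p from 0.106 to 0.126), and the value was 1.05 without TDonly replicate 1 and 2.33 without ColGFP replicate 1. The exons of Gpr17 overlap those of Lims2 by 188 bases, and Lims2 was at 55.9 ± 4.36 CPM in DBL, 97.9 ± 9.79 CPM in TDonly and 25.1 ± 6.79 CPM in ColGFP (SD, n = 3 each).

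Of the other class A orphans, 25 of 36 were tested. Here 11 were higher and 1 lower in DBL against TDonly, 2 higher and 13 lower in TDonly against ColGFP, and 1 higher and 1 lower in DBL against ColGFP. That is 48% of the 25 in DBL against TDonly, 60% in TDonly against ColGFP and 8% in DBL against ColGFP, beside 29.9%, 45.5% and 14.5% of all genes tested. Over all genes, 17.3% were higher and 12.6% lower in DBL against TDonly, and 21.6% higher and 24% lower in TDonly against ColGFP. Most of these calls came from genes that were lower in TDonly than in DBL and in ColGFP and whose difference between DBL and ColGFP did not pass. The sums of fibroblast and matrix markers given above were also lowest in TDonly, and their part in these differences was not tested. Gpr153 was the most abundant of these, at 105, 124 and 136 CPM in DBL, 8.73, 18.7 and 22.2 CPM in TDonly and 135, 165 and 169.7 CPM in ColGFP. TDonly was far below DBL and ColGFP, which overlapped. The log2 fold change was 2.88 ± 0.30 (adjusted p = 0.000148) in DBL against TDonly, -3.24 ± 0.30 (adjusted p = 2.17e-05) in TDonly against ColGFP and -0.36 ± 0.27 (adjusted p = 0.453) in DBL against ColGFP, which passed in the higher core series alone, at -0.35 (adjusted p = 0.00445). Gpr161, a ciliary receptor that restrains hedgehog signalling, was at 6.82, 9.78 and 9.65 CPM in DBL, 0.507, 2.003 and 1.63 CPM in TDonly and 10.46, 10.8 and 10.9 CPM in ColGFP. ColGFP was above DBL here and TDonly below both. DBL was higher than TDonly by 2.67 ± 0.38 (adjusted p = 0.000688) and TDonly was lower than ColGFP with -2.96 ± 0.38 (adjusted p = 0.000172).

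Less abundant genes were also lowest in TDonly. Gpr62 was at 1.49, 2.12 and 2.38 CPM in DBL, 0.663, 0.761 and 0.528 CPM in TDonly and 1.699, 4.17 and 3.37 CPM in ColGFP. Gpr63 was at 1.79, 2.298 and 1.94 CPM in DBL, 0.507, 0.881 and 0.615 CPM in TDonly and 2.46, 2.24 and 2.86 CPM in ColGFP. In both, TDonly was below every library of the other populations, which overlapped. Gpr162 was at 1.296, 1.58 and 2.02 CPM in DBL, 0.273, 0.2 and 0.659 CPM in TDonly and 3.26, 1.51 and 1.52 CPM in ColGFP. Gpr173, of a conserved group of brain receptors, was at 1.91, 0.946 and 1.74 CPM in DBL, 0.234, 0.2 and 0.264 CPM in TDonly and 3.13, 1.03 and 1.99 CPM in ColGFP. Again every TDonly library was below all DBL and ColGFP libraries. The log2 fold changes in DBL against TDonly were 1.60 ± 0.39 (adjusted p = 0.0113) for Gpr62, 1.58 ± 0.29 (adjusted p = 0.00268) for Gpr63, 2.11 ± 0.51 (adjusted p = 0.0115) for Gpr162 and 2.70 ± 0.51 (adjusted p = 0.00309) for Gpr173. In TDonly against ColGFP they were -2.22 ± 0.39 (adjusted p = 0.00114) for Gpr62, -1.91 ± 0.29 (adjusted p = 0.000494) for Gpr63, -2.48 ± 0.51 (adjusted p = 0.00311) for Gpr162 and -3.12 ± 0.51 (adjusted p = 0.000754) for Gpr173. Without TDonly replicate 3 those of Gpr162 were 2.75 in DBL against TDonly and -3.13 in TDonly against ColGFP.

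Gpr135 and Gpr27, a relative of Gpr173, were rarer still. Gpr135 was higher in DBL than in TDonly by 1.86 ± 0.32 (adjusted p = 0.00183) and lower in TDonly than in ColGFP with -1.66 ± 0.32 (adjusted p = 0.00228). Gpr27 was higher in DBL than in TDonly by 2.12 ± 0.59 (adjusted p = 0.0229) and lower in TDonly than in ColGFP with -2.23 ± 0.60 (adjusted p = 0.0129). Gpr27 lost its call in DBL against TDonly without DBL replicate 4, or TDonly replicates 1 or 2 (adjusted p from 0.0543 to 0.0825). Gpr27 lost its call in TDonly against ColGFP without TDonly replicate 2, or ColGFP replicate 2 (adjusted p from 0.0504 to 0.0511), and the value without ColGFP replicate 2 was -1.63. Gpr19 was at 4.003, 5.63 and 5.82 CPM in DBL, 2.49, 4.41 and 3.69 CPM in TDonly and 6.17, 7.14 and 8.13 CPM in ColGFP, and was lower in TDonly than in ColGFP with -1.02 ± 0.25 (adjusted p = 0.00773). Gpr152 was lower in TDonly than in ColGFP with -1.61 ± 0.52 (adjusted p = 0.0299). Gpr152 lost its call in TDonly against ColGFP without TDonly replicates 2 or 3, or ColGFP replicate 2 (adjusted p from 0.0789 to 0.0849), and the value without TDonly replicate 1 was -2.19. Gpr151 was higher in TDonly than in ColGFP by 2.18 ± 0.60 (adjusted p = 0.0153). Gpr151 lost its call in TDonly against ColGFP without TDonly replicate 1, or ColGFP replicate 3 (adjusted p from 0.0521 to 0.065).

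Gpr176, a receptor of the circadian clock in mice, rested in part on 1 library. It was at 15.9, 2.21 and 2.75 CPM in DBL, 0.546, 0.561 and 0.22 CPM in TDonly and 6.84, 6.84 and 5.13 CPM in ColGFP. DBL replicate 1 was more than 5 times the other DBL libraries, whereas the ColGFP libraries were close together. DBL was higher than TDonly by a log2 fold change of 3.95 ± 0.81 (adjusted p = 0.0048), and without DBL replicate 1 by 2.46 (adjusted p = 0.00136). DBL against ColGFP gave 0.15 ± 0.65 (adjusted p = 0.912) with all libraries. Without DBL replicate 1 it was -1.34 (adjusted p = 0.0345), and among the higher core series alone -1.24 (adjusted p = 0.00473). TDonly was lower than ColGFP with -3.79 ± 0.81 (adjusted p = 0.00379).

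Some genes counted with the class A orphans had another pattern. Gpr146, which affects plasma cholesterol through the liver, was at 142, 106 and 119.9 CPM in DBL, 327, 258 and 238 CPM in TDonly and 107, 53.7 and 54.3 CPM in ColGFP. TDonly was above every other library, and replicate 1 was the highest in each population, and ColGFP replicate 1 reached into the range of DBL. DBL was lower than TDonly with a log2 fold change of -1.16 ± 0.26 (adjusted p = 0.00843) and TDonly was higher than ColGFP by 1.94 ± 0.27 (adjusted p = 0.000277), while DBL against ColGFP gave 0.78 ± 0.26 (adjusted p = 0.0833). Without ColGFP replicate 1 that value was 1.21 (adjusted p = 0.00225), and in the higher core series alone 1.08 (adjusted p = 1.47e-08), a fit of 6 libraries that called more of all genes. It also passed with DESeq2 (adjusted p = 0.026) and with the core series as covariate (adjusted p = 0.00218). Gpr157, linked to the cilia of neural progenitors in mice, was at 11.6, 10.1 and 11.8 CPM in DBL, 8.38, 9.29 and 8.35 CPM in TDonly and 29.3, 22.7 and 23.3 CPM in ColGFP. ColGFP was above both other populations. The difference was -1.17 ± 0.13 (adjusted p = 0.000407) in DBL against ColGFP and -1.53 ± 0.14 (adjusted p = 1.66e-05) in TDonly against ColGFP, and both passed.

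Gpr39, a zinc receptor, was at 14.7, 8.11 and 9.41 CPM in DBL, 1.13, 1.84 and 2.37 CPM in TDonly and 2.19, 4.23 and 3.23 CPM in ColGFP. Each DBL library was above every TDonly and ColGFP library, and those 2 populations overlapped. DBL was higher than ColGFP by a log2 fold change of 1.75 ± 0.34 (adjusted p = 0.00784) and higher than TDonly by 2.60 ± 0.35 (adjusted p = 0.000556). Of its 3015 exon bases, 1202 overlap Lypd1 on the opposite strand, and Lypd1 was at 0.634 ± 0.309 CPM in DBL, 0.394 ± 0.18 CPM in TDonly and 0.127 ± 0.0912 CPM in ColGFP (SD, n = 3 each). The mesothelial sums given above were also highest in DBL, and their part in the Gpr39 level was not tested. Gpr179, a class C receptor of the retina, was the other gene called higher in DBL than in both other populations. It averaged 1.95 ± 0.106 CPM in DBL, 1.06 ± 0.155 CPM in TDonly and 0.922 ± 0.144 CPM in ColGFP (SD, n = 3 each), with 1.07 ± 0.27 (adjusted p = 0.0268) in DBL against ColGFP and 0.88 ± 0.27 (adjusted p = 0.0317) in DBL against TDonly. Gpr179 lost its call in DBL against ColGFP without DBL replicates 1, 3 or 4, or ColGFP replicates 2 or 3 (adjusted p from 0.0632 to 0.103). Gpr179 lost its call in DBL against TDonly without DBL replicates 1, 3 or 4, or TDonly replicates 1 or 2 (adjusted p from 0.0685 to 0.0961).

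**Figure D4:**
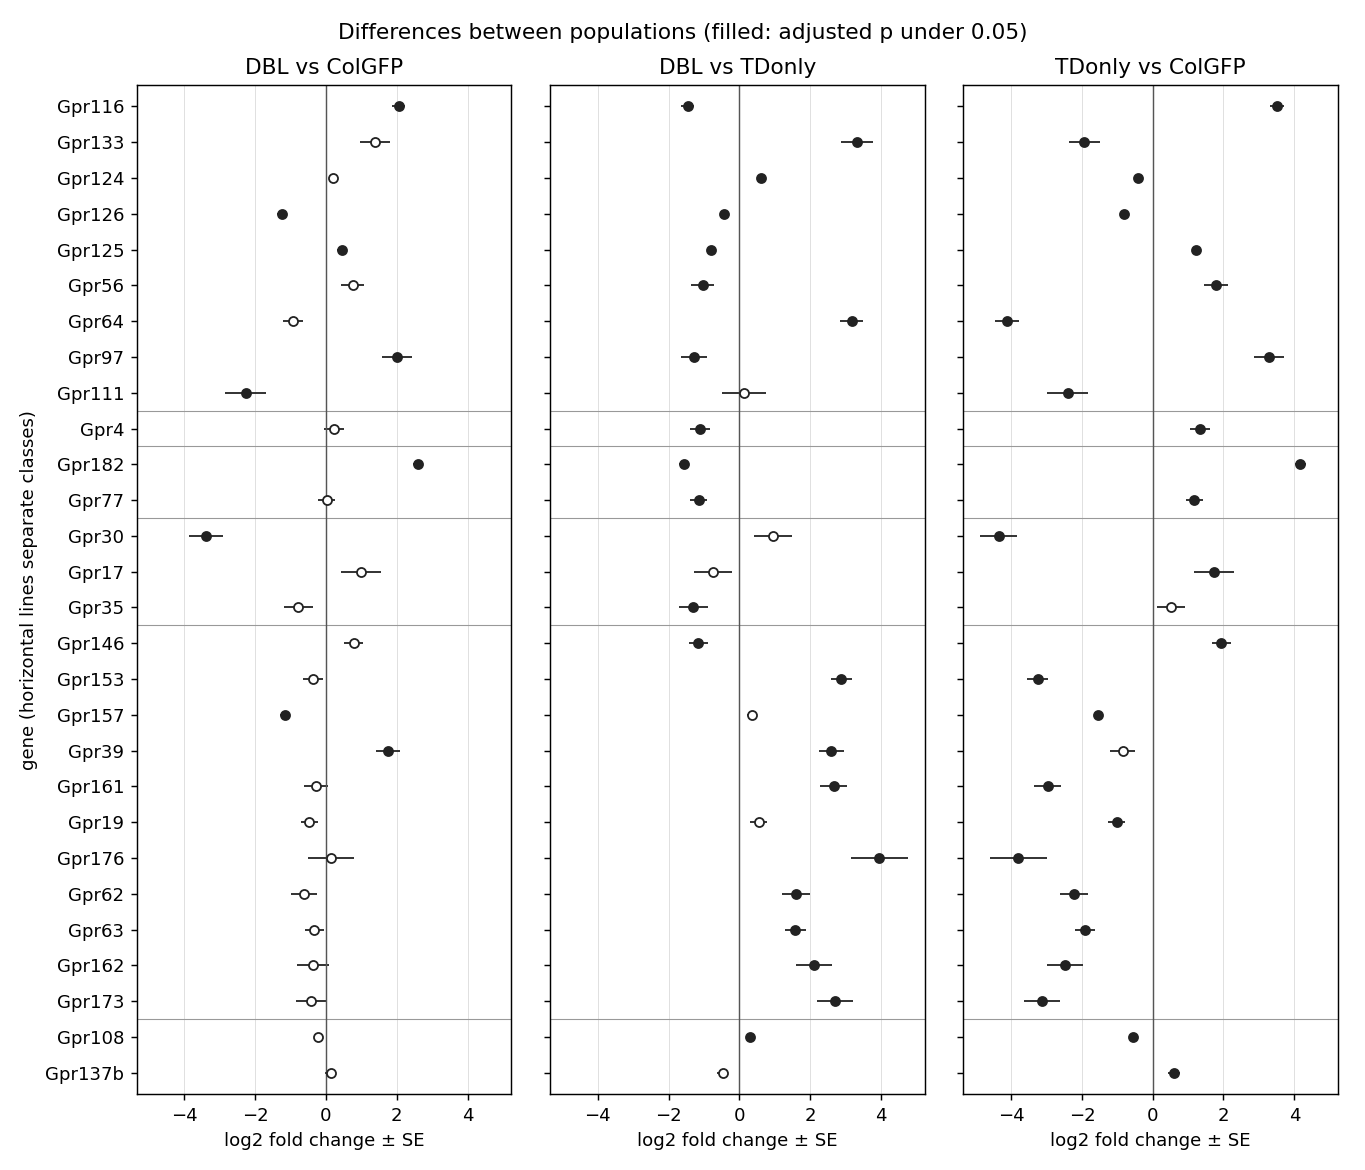
Log2 fold changes (horizontal axis) with their SE as whiskers for the same 28 numbered Gpr genes, 1 row a gene grouped by class, in DBL against ColGFP, DBL against TDonly and TDonly against ColGFP; filled points passed an adjusted p of 0.05. In TDonly against ColGFP the points run from -4.34 for Gpr30 to 4.17 for Gpr182.

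Of the 9 intracellular proteins, 8 were tested: 1 was higher in DBL than in TDonly, and 1 was higher and 1 lower in TDonly than in ColGFP. That is 0% of the 8 in DBL against ColGFP, 12.5% in DBL against TDonly and 25% in TDonly against ColGFP. Of all genes tested, 14.5%, 29.9% and 45.5% passed in these comparisons. With so few genes the shares rest on single calls, and they were not tested as a set. Gpr108 was at 44.6, 44.5 and 53.3 CPM in DBL, 38.2, 37.8 and 39.3 CPM in TDonly and 52.2, 57.5 and 58.2 CPM in ColGFP. It was higher in DBL than in TDonly by a log2 fold change of 0.31 ± 0.10 (adjusted p = 0.0397) and lower in TDonly than in ColGFP with -0.54 ± 0.10 (adjusted p = 0.00136). Gpr108 lost its call in DBL against TDonly without DBL replicate 4, or TDonly replicates 1, 2 or 3 (adjusted p from 0.0797 to 0.112). Gpr137b, a lysosomal protein, was at 9.65, 12.3 and 12.3 CPM in DBL, 17.2, 15.1 and 14.9 CPM in TDonly and 8.59, 12.04 and 10.7 CPM in ColGFP, and was higher in TDonly than in ColGFP by 0.60 ± 0.16 (adjusted p = 0.0129). The table lists its pseudogene copy Gpr137b-ps at 13.2 ± 2.202 CPM in DBL, 18.96 ± 1.17 CPM in TDonly and 12.5 ± 0.395 CPM in ColGFP (SD, n = 3 each), and reads may be split between them, so this value is uncertain. Of the 32 tested genes that passed in no comparison, 5 averaged at least 10 CPM somewhere, and all 5 are intracellular proteins. Gpr107 averaged 67.9 ± 6.49 CPM in DBL, 67.7 ± 5.49 CPM in TDonly and 69.1 ± 7.54 CPM in ColGFP. Gpr155, a lysosomal cholesterol sensor, averaged 25.6 ± 5.46 CPM in DBL, 24.1 ± 5.03 CPM in TDonly and 34.1 ± 6.06 CPM in ColGFP. Gpr180 averaged 25.2 ± 1.09 CPM in DBL, 19.5 ± 1.26 CPM in TDonly and 24.5 ± 4.24 CPM in ColGFP. These means differ by less than 1.5 times between populations. In the higher core series alone, Gpr180 passed in DBL against TDonly, at 0.38 (adjusted p = 0.00944), and in TDonly against ColGFP, at -0.45 (adjusted p = 0.00238). Gpr107 passed there in TDonly against ColGFP, at -0.21 (adjusted p = 0.0422). Gpr89 averaged 11.04 ± 0.113 CPM in DBL, 15.3 ± 2.77 CPM in TDonly and 13.4 ± 2.18 CPM in ColGFP and Gpr137 12.4 ± 1.87 CPM in DBL, 14.3 ± 1.49 CPM in TDonly and 13.9 ± 2.06 CPM in ColGFP (SD, n = 3 each throughout).

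The other 27 uncalled genes were scarcer. Their highest population mean was 7.67 CPM, in Gpr132, and 13 of the 68 tested genes were under 1 CPM in every population. Gpr3 averaged 4.61 ± 1.26 CPM in DBL, 3.77 ± 0.368 CPM in TDonly and 4.42 ± 0.135 CPM in ColGFP (SD, n = 3 each). For the scarce genes, a difference may exist that was not detectable at this depth. The filter left out 19 genes, each with 0 to 33 counts in a library, among them Gpr110, Gpr119, Gpr123, Gpr128, Gpr143, Gpr149, Gpr15, Gpr158, Gpr165, Gpr20, Gpr25, Gpr33, Gpr37, Gpr45, Gpr50, Gpr83 and Gpr85.

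Levels of different genes were compared per kb of exon (CPM per kb). Gpr116 led in all 3 populations, at 196 CPM per kb in DBL, 537 in TDonly and 47.1 in ColGFP. After it came Gpr124 at 36.6, Gpr133 at 31.6 and Gpr153 at 31.1 CPM per kb in DBL. In TDonly they were Gpr146 at 40.4, Gpr124 at 23.9 and Gpr56 at 23.6 CPM per kb. In ColGFP they were Gpr153 at 40.04, Gpr124 at 31.6 and Gpr108 at 19.6 CPM per kb. Gpr124 was thus among the 3 next genes in each population, while the others in those places differed.

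Neighbouring numbered Gpr genes did not always share a pattern. Gpr56 and Gpr97, 3.47 kb apart on chromosome 8, were both highest in TDonly. Gpr146 and Gpr30, 26.7 kb apart on chromosome 5, were opposite: in TDonly against ColGFP the log2 fold change was 1.94 ± 0.27 for Gpr146 and -4.34 ± 0.52 for Gpr30. Gpr115 and Gpr111, 16.7 kb apart on chromosome 17, were both lower in TDonly than in ColGFP. Gpr116 lies 35.7 kb from Gpr110, which was left out by the filter.

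Lists of proteins that carry or end the signal of these receptors inside the cell are read against the shares of all genes tested that passed, 14.5% in DBL against ColGFP, 29.9% in DBL against TDonly and 45.5% in TDonly against ColGFP. No list was tested as a set. Of 13 G protein alpha subunits, 5 were higher and 0 lower in DBL against ColGFP, 2 higher and 7 lower in DBL against TDonly, and 8 higher and 2 lower in TDonly against ColGFP, or 38.5%, 69.2% and 76.9% of the list. Their median log2 fold changes were 0.18, -0.47 and 0.78, in that order of comparisons, which the shares and medians of the lists below follow too. Gnao1, of the Gi/o class, gave 1.46 ± 0.12 (adjusted p = 6.11e-05) in DBL against ColGFP, -1.01 ± 0.12 (adjusted p = 0.000249) in DBL against TDonly and 2.47 ± 0.12 (adjusted p = 5.9e-07) in TDonly against ColGFP. Gna14, of the Gq class, gave 1.23 ± 0.16 (adjusted p = 0.000859), -1.31 ± 0.16 (adjusted p = 0.000285) and 2.54 ± 0.16 (adjusted p = 2.53e-06) in the same comparisons. Both were thus highest in TDonly. Gnai1 and Gnas, the Gs subunit, were lower there: TDonly against ColGFP gave -1.47 ± 0.14 (adjusted p = 3.09e-05) for Gnai1 and -0.46 ± 0.10 (adjusted p = 0.00422) for Gnas, and DBL against TDonly 1.05 ± 0.14 (adjusted p = 0.000563) for Gnai1 and 0.32 ± 0.10 (adjusted p = 0.036) for Gnas. The Gnas call in DBL against TDonly was lost without DBL replicates 1 or 4, or TDonly replicates 1, 2 or 3 (adjusted p from 0.0642 to 0.106).

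RGS proteins shorten the signal by speeding up GTP hydrolysis. Of 17 tested out of 20 listed, 3 were higher and 3 lower in DBL against ColGFP, 4 higher and 5 lower in DBL against TDonly, and 5 higher and 4 lower in TDonly against ColGFP, or 35.3%, 52.9% and 52.9%, the last of them near the share of all genes, with medians of -0.06, -0.46 and 0.71. Rgs3 and Rgs12 were highest in TDonly, with 2.44 ± 0.10 (adjusted p = 2.31e-07) for Rgs3 and 2.72 ± 0.17 (adjusted p = 1.72e-06) for Rgs12 in TDonly against ColGFP. Rgs2 and Rgs16 were lower there, with -3.20 ± 0.32 (adjusted p = 3.48e-05) for Rgs2 and -2.01 ± 0.12 (adjusted p = 1.86e-06) for Rgs16. In DBL against ColGFP the values were 1.15 ± 0.09 (adjusted p = 5.73e-05) for Rgs3, 1.47 ± 0.16 (adjusted p = 0.000282) for Rgs12, -2.28 ± 0.31 (adjusted p = 0.00106) for Rgs2 and -0.81 ± 0.12 (adjusted p = 0.00174) for Rgs16. In DBL against TDonly they were 1.20 ± 0.12 (adjusted p = 0.000141) for Rgs16, 0.85 ± 0.14 (adjusted p = 0.00159) for Rgs4, -1.29 ± 0.09 (adjusted p = 5.49e-05) for Rgs3 and -1.25 ± 0.16 (adjusted p = 0.000371) for Rgs12.

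Receptor kinases and arrestins switch activated receptors off. Of 8 tested, 1 was higher and 1 lower in DBL against ColGFP, 0 higher and 4 lower in DBL against TDonly, and 5 higher and 1 lower in TDonly against ColGFP, or 25%, 50% and 75%, with medians of 0.11, -0.43 and 0.57. The kinase Adrbk1 gave 0.30 ± 0.08 (adjusted p = 0.0365) in DBL against ColGFP, -0.59 ± 0.08 (adjusted p = 0.000595) in DBL against TDonly and 0.89 ± 0.08 (adjusted p = 2.13e-05) in TDonly against ColGFP. The arrestin Arrb1 was lower in DBL than in TDonly with -0.63 ± 0.10 (adjusted p = 0.00104) and higher in TDonly than in ColGFP by 0.67 ± 0.10 (adjusted p = 0.000383). The kinase Grk5 was lower in DBL than in ColGFP with -0.55 ± 0.14 (adjusted p = 0.03) and lower in TDonly than in ColGFP with -0.82 ± 0.14 (adjusted p = 0.00118). The Adrbk1 call in DBL against ColGFP was lost without DBL replicates 1, 3 or 4, or TDonly replicates 2 or 3, or ColGFP replicates 2 or 3 (adjusted p from 0.0539 to 0.145). The Grk5 call in DBL against ColGFP was lost without DBL replicates 1, 3 or 4, or TDonly replicate 2, or ColGFP replicates 2 or 3 (adjusted p from 0.0504 to 0.105).

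Adenylyl cyclases make cyclic AMP. Of 9 tested out of 10 listed, 2 were higher and 3 lower in DBL against ColGFP, 5 higher and 1 lower in DBL against TDonly, and 2 higher and 5 lower in TDonly against ColGFP, or 55.6%, 66.7% and 77.8%, with medians of -0.22, 0.40 and -0.35. Adcy4, the cyclase known from endothelium, was at 164, 105 and 106 CPM in DBL, 437, 316 and 327 CPM in TDonly and 22.5, 27.9 and 24.7 CPM in ColGFP. It had the same order as Gpr116, with 2.32 ± 0.21 (adjusted p = 9.57e-05) in DBL against ColGFP, -1.52 ± 0.20 (adjusted p = 0.000446) in DBL against TDonly and 3.85 ± 0.22 (adjusted p = 1.19e-06) in TDonly against ColGFP. Adcy8 was higher in DBL and in TDonly than in ColGFP, with 1.14 ± 0.33 (adjusted p = 0.0442) for DBL and 1.73 ± 0.33 (adjusted p = 0.00188) for TDonly. Adcy5 and Adcy2 were highest in ColGFP. In DBL against ColGFP they gave -1.18 ± 0.23 (adjusted p = 0.00769) for Adcy5 and -1.38 ± 0.31 (adjusted p = 0.0162) for Adcy2, and in TDonly against ColGFP -2.71 ± 0.24 (adjusted p = 1.89e-05) for Adcy5 and -3.51 ± 0.34 (adjusted p = 2.94e-05) for Adcy2. In DBL against TDonly, Adcy7 gave 0.98 ± 0.14 (adjusted p = 0.000624) and Adcy3 1.63 ± 0.23 (adjusted p = 0.00074). The Adcy8 call in DBL against ColGFP was lost without DBL replicates 1, 3 or 4, or TDonly replicates 2 or 3, or ColGFP replicates 2 or 3 (adjusted p from 0.0593 to 0.143). The Adcy2 call in DBL against ColGFP was lost without DBL replicates 3 or 4, or ColGFP replicates 2 or 3 (adjusted p from 0.0519 to 0.0623).

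The list of known ligands, coreceptors and ligand-handling enzymes of numbered Gpr receptors held 19 genes, all tested. Of them, 2 were higher and 0 lower in DBL against ColGFP, 9 higher and 0 lower in DBL against TDonly, and 5 higher and 8 lower in TDonly against ColGFP, or 10.53%, 47.4% and 68.4%, with medians of 0.30, 0.49 and 0.01. Reck, the partner of Gpr124, was at 102, 150.0 and 151 CPM in DBL, 24.3, 41.1 and 44.8 CPM in TDonly and 144, 192 and 197 CPM in ColGFP. TDonly was below every library of the other populations. Reck was higher in DBL than in TDonly by 1.87 ± 0.25 (adjusted p = 0.000472), and lower in TDonly than in ColGFP with -2.27 ± 0.25 (adjusted p = 6.23e-05). Prnp, the prion protein, a ligand of Gpr126, gave 0.62 ± 0.08 (adjusted p = 0.000371) in DBL against TDonly and -0.86 ± 0.08 (adjusted p = 1.99e-05) in TDonly against ColGFP. The chemokine Cxcl12, which binds Gpr182, was higher in DBL than in ColGFP by 1.79 ± 0.27 (adjusted p = 0.0021) and in TDonly than in ColGFP by 2.56 ± 0.28 (adjusted p = 5.88e-05). Cxcl13 was at 79.7, 5.99 and 6.22 CPM in DBL, 1.52, 2.32 and 2.68 CPM in TDonly and 3.26, 3.39 and 3.05 CPM in ColGFP, and DBL replicate 1 stood far above the rest. DBL against ColGFP gave 3.25 ± 0.94 (adjusted p = 0.0472), but 0.92 without DBL replicate 1. The Cxcl13 call in DBL against ColGFP was lost without DBL replicate 1, or TDonly replicates 2 or 3, or ColGFP replicates 1, 2 or 3 (adjusted p from 0.0547 to 0.146). Hsd3b7, an enzyme that breaks down the oxysterol ligand of Gpr183, was higher in TDonly than in ColGFP by 0.75 ± 0.18 (adjusted p = 0.00679).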

How the data were processed

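RNA of 9 libraries, 3 from each sorted population, was sequenced after depletion of ribosomal RNA, per the series' design text. The kit protocol in the labels describes RNA of frozen lungs, and how it applies to sorted cells is not given in the sources used here. The deposited values are raw read counts per gene, whole numbers not normalized by the authors. The submitters' processing notes name cutadapt, TopHat, HTSeq and mm10; no source used here gives the annotation or the strand setting. The table has 3 further columns of values that match no sample, and they were not used. Library totals were 17820969 to 26147475 counts, and intervals given as SE or SD cover these libraries only.

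Counts of 15550 of 19348 genes that passed edgeR's filterByExpr (minimum count 10) were scaled with TMM factors and fitted in 1 model of the 3 populations over the 9 libraries with edgeR 4.0.16 (R 4.3.3), quasi-likelihood test, 6 residual degrees of freedom. P-values were adjusted over all genes tested by Benjamini-Hochberg, and a gene was called at an adjusted p under 0.05. The members, the class lists, the marker lists and the tests were chosen with earlier results of these data known. Members that passed in any comparison and averaged at least 2 CPM in their highest population are given by library; scarcer ones that passed by fold change; of those that passed nowhere, the ones averaging at least 10 CPM somewhere are given by mean. Some genes that are counted are not reported here by name. Of each signalling list, the 2 genes of smallest adjusted p in each direction of each comparison are named. Lypd1, Lims2 and Gpr137b-ps were added for sharing sequence with a member. CPM use TMM factors, and CPM per kb the exon length of GENCODE M21. The script was tested on counts simulated for DBL against ColGFP: over 15099 genes, 71% of 100 genes changed 2-fold and 95% of 100 genes changed 4-fold were recovered, with 10 false calls. All libraries were simulated from the ColGFP means, and the changed genes were drawn from those above 2 CPM there. These rates therefore do not apply to scarcer genes, nor to data where as many genes differ as here. Alternatives were other scaling factors, other filters, DESeq2 1.42.0, limma-voom (limma 3.58.1), fits of 2 populations alone, a replicate block, the core number series, and leaving out each library.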

Additional observations from a re-analysis of the deposited data

How the results depend on the processing

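No call of a numbered Gpr gene changed sign under any alternative run. Of 71 calls, 71 were kept with RLE size factors, with DESeq2 and with the core number series as covariate, 70 with no filter, 69 with upper-quartile factors, with limma-voom and in the higher core series alone, 68 with library totals, 68 of the 70 still tested in fits of 2 populations alone, and 66 of 66 with a filter of 1 CPM in 3 libraries. Library totals moved the median of all genes to -0.13 in DBL against TDonly and to 0.16 in TDonly against ColGFP. In DBL against ColGFP, the count higher was 10 with the core number series as covariate and 10 in the higher core series alone, where the count lower was 8. Over all genes, 1751 were higher with the covariate, in place of 1250. In the higher core series alone, 2543 were higher and 1969 lower, the latter in place of 1006. The only reversals were of Gpr176 in DBL against ColGFP, which was not called with all libraries: -1.24 in the higher core series and -1.34 without DBL replicate 1, within a range of -1.34 to 0.58 over the fits that leave out 1 library.

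Leaving out each of the 9 libraries gave 4 to 8 genes higher and 3 to 5 lower in DBL against ColGFP, 13 to 19 higher and 7 to 12 lower in DBL against TDonly, and 9 to 12 higher and 19 to 24 lower in TDonly against ColGFP. Over all genes, those fits gave 845 to 1488 higher and 581 to 1298 lower in DBL against ColGFP. In DBL against TDonly they gave 2264 to 3098 higher and 1155 to 2019 lower, and in TDonly against ColGFP 2439 to 3465 higher and 3263 to 3938 lower. Of the 71 calls, 54 held in every such fit and 17 were lost in at least 1. Of the 48 calls of named signalling genes, 6 were lost in at least 1 such fit and 0 changed sign. Depth limits the scarce genes, and 13 tested genes were under 1 CPM in every population.

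With the replicate number as a block, 60 of the 71 calls were kept, with 6 genes higher and 3 lower in DBL against ColGFP, 12 higher and 10 lower in DBL against TDonly, and 11 higher and 20 lower in TDonly against ColGFP. Over all 15550 genes the block gave 955 higher and 626 lower, 2156 higher and 1438 lower, and 3039 higher and 3444 lower in these comparisons. No other library carries the number of DBL replicate 4, so the block takes up that library and DBL is compared through replicates 1 and 3. Among the calls not kept were those of Gpr162 (1.71, adjusted p = 0.0829), Gpr27, Gpr115, Gpr126, Gpr108 and Gpr179 in DBL against TDonly, of Gpr111, Gpr125 and Gpr179 in DBL against ColGFP and of Gpr152 in TDonly against ColGFP. Gpr133 and Gpr146 passed in DBL against ColGFP with the block. The numbers were not taken as pairs: DBL shares only 2 of its numbers with either other population, and same-numbered TDonly and ColGFP libraries deviated together with correlations across genes of 0.102, 0.0450 and 0.0792. Same-numbered DBL and TDonly libraries had 0.527 for replicate 1 and 0.232 for replicate 3, where DBL replicate 3 had 0.306 with TDonly replicate 2, and same-numbered DBL and ColGFP libraries had 0.0926 and 0.0156. ColGFP replicate 2 correlated best with TDonly replicate 3, at 0.0489. The block also absorbs the core series of the replicate 1 libraries.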
